A study of Mus musculus with 4 samples.

Results

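The genes described here are 44 mouse genes of the type I interferon response and of RNA sensing, followed over 4 RNA libraries of cells labelled regulatory T cell. They were chosen by name, as symbols looked up in the GENCODE annotation of the mouse genome build mm10. The choice was made with earlier results of these data known, so counts over the 44 are descriptive. All 44 were found among the 50600 genes of the deposited tables, and a further 52 genes of the same pathway were followed beside them. Primary cells of the mouse strain C57BL/6NJ were used, with no age given, and the 4 libraries form 1 group with biological replicate numbers 1 to 4. Each library has its own biosample, while a single donor record is named for all of them, so each p-value given reflects nothing beyond the scatter of these 4 samples, part of which may be technical. The labels give the molecule as total RNA and cite 2 protocols, for poly(A) RNA libraries and for the differentiation of CD4 T cells. The column name in each file adds the word activated with a time mark of 0 h. No agent, further condition or control group is named, so genes were compared with each other inside a library and followed from library to library.

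Cells detect foreign or misplaced RNA with a small set of sensor proteins in the cytosol. RIG-I (gene Ddx58) binds uncapped ends of short double-stranded RNA, MDA5 (Ifih1) binds long double-stranded RNA, and both pass the signal to the adaptor MAVS on mitochondria, which leads to the production of type I interferon. Interferon binds a receptor made of Ifnar1 and Ifnar2, the kinases Jak1 and Tyk2 pass the signal on, and a complex that holds Stat2 and Irf9 binds a DNA word called the interferon-stimulated response element (ISRE). The genes under that control, the interferon-stimulated genes, include the sensors themselves and a large set of antiviral effectors, and T cells are known to keep many of them at a low, constant level in the absence of infection.

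Promoters of 6 of the genes that differed between libraries and hold an ISRE are printed first, since the members are commonly grouped by this word, followed by that of Mavs, which holds none. Each line gives the 250 bases before the RefSeq start site on GRCm38.p6, read toward the gene, and capitals mark each match to the ISRE word, GAAA then any 2 bases then GAAA, on either strand. The stretches lie at chr19:34640639-34640888 (Ifit1, plus strand), chr19:34583279-34583528 (Ifit3, plus), chr19:34607707-34607956 (Ifit3b, plus), chr4:156200819-156201068 (Isg15, minus), chr5:120777660-120777909 (Oas3, minus), chr8:71537473-71537722 (Bst2, minus) and chr2:131233813-131234062 (Mavs, plus).
Ifit1: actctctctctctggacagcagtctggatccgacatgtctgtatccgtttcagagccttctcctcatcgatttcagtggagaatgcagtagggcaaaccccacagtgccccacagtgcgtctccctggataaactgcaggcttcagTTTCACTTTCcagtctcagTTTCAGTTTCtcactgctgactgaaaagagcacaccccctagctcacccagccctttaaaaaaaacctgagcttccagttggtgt
Ifit3: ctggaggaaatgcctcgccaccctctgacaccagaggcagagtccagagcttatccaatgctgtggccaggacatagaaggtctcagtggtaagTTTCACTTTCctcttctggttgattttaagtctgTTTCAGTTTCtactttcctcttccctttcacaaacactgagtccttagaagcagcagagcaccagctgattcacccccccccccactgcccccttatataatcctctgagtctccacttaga
Ifit3b: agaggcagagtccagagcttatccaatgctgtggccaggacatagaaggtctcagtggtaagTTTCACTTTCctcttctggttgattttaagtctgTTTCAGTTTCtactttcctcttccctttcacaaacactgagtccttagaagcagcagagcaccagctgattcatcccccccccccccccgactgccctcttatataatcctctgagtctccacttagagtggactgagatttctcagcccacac
Isg15: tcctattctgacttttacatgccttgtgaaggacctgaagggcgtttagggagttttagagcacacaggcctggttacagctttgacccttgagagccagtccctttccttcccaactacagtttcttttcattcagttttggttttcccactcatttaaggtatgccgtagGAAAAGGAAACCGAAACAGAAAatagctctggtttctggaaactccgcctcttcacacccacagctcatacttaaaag
Oas3: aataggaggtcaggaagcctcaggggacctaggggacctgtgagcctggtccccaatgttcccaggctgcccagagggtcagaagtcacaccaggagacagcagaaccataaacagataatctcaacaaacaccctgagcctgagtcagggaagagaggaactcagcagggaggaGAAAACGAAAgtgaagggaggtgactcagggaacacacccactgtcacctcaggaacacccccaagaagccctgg
Bst2: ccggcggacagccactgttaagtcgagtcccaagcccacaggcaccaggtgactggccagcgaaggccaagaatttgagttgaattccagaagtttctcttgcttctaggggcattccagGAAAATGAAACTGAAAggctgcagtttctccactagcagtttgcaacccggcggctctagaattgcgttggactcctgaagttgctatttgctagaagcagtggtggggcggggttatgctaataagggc
Mavs: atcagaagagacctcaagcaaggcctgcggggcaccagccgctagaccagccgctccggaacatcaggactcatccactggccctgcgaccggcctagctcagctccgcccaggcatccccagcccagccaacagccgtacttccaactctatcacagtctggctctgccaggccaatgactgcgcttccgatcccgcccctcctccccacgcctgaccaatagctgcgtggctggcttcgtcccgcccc
Counted from the start site, matches began at -104 and -85 in Ifit1, at -156 and -122 in Ifit3, and at -188 and -154 in Ifit3b. Isg15 held 3 overlapping matches from -78, -72 and -66, Bst2 held 2 overlapping matches from -130 and -124, and Oas3 held 1 at -75. The stretches of Ifit3 and Ifit3b share an identical run of 169 bases that covers both of their matches, so they are not independent examples.

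The RefSeq promoter table, which reaches 50 bases past each start site, had an entry for 33 of the 44 genes. The ISRE word was present in 14 of these (42.4%), and in 3.99% of the 27025 genes of the table. The longer word, with C added after the last A, was in 11 of the 33 (33.3%, against 0.944% of all genes). The word TTCNNNGAA, known as the gamma-activated site, was in 8 (24.2%, against 9.55%), and its strict form TTCCNGGAA in 2 (6.06%, against 1.35%). In the sensors Ddx58, Ifih1 and Eif2ak2 the ISRE match lay just past the start site, at base 3 (TTTCGATTTC, the word as read on the opposite strand), base 33 (GAAACAGAAA) and base 19 (GAAAACGAAA). The remaining genes with a match were Oas1a, Rsad2, Trim30a, Trim30d and Ifi203. The genes with no entry were Dhx58, Zbp1, Oas2, Usp18, Mx1, Mx2, Parp9, Parp14, Rtp4, Ifi27l2a and Tor3a. Of the genes with an entry, 6 of the 10 that were called variable between libraries (below) and 8 of the other 23 held the ISRE word. A match describes the letters in this window and does not show that the site is used.

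Total counts were 25573253 and 23000465 in replicates 1 and 3 and 62090744 and 61943411 in replicates 2 and 4, a 2.70-fold range. Levels are given in TPM, which are counts per exon base scaled to the same total in every library, and strings of 4 values follow the order of replicates 1 to 4. Genes of T cells and of naive T cells were abundant, led by Trac at 3435 ± 137 TPM and Tcf7 at 2932 ± 117 TPM (SD, n = 4). The factor that defines regulatory T cells, Foxp3, was low at 8.08, 8.18, 9.46 and 7.39 TPM, as was Ikzf2 at 1.34 ± 0.194 TPM, while Izumo1r, another gene of that list, stood at 167 ± 8.51 TPM. The levels below are therefore those of the libraries labelled regulatory T cell, in which the defining factor was detected at a low level. The labels record no sex. Xist, the RNA of the inactive X chromosome of female cells, was at 141, 148, 0.460 and 0.271 TPM, and the sum of the Y-linked genes Ddx3y, Eif2s3y, Kdm5d and Uty was 0.576, 0.270, 159 and 170.3 TPM. Replicates 1 and 2 thus carried Xist and replicates 3 and 4 carried Y-linked messages, although 1 donor record is named for all 4.

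The interferon and RNA sensing genes were present at moderate levels in all 4 libraries. Of the 44 genes, 43 reached 1 TPM in every library, 38 reached 10 TPM and 11 reached 100 TPM. Among the 14116 protein-coding genes that had any count, 70.5%, 54.5% and 11.7% did so. The median over the 44 genes was 52.0, 42.0, 46.2 and 37.7 TPM, with a mean of 44.5 ± 6.09 TPM (SD, n = 4), beside 15.1 ± 0.376 TPM for those protein-coding genes. Replicate 1 had the highest median and replicate 4 the lowest. Together the 44 genes took 0.445%, 0.423%, 0.423% and 0.374% of the counts.

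**Figure D1:**
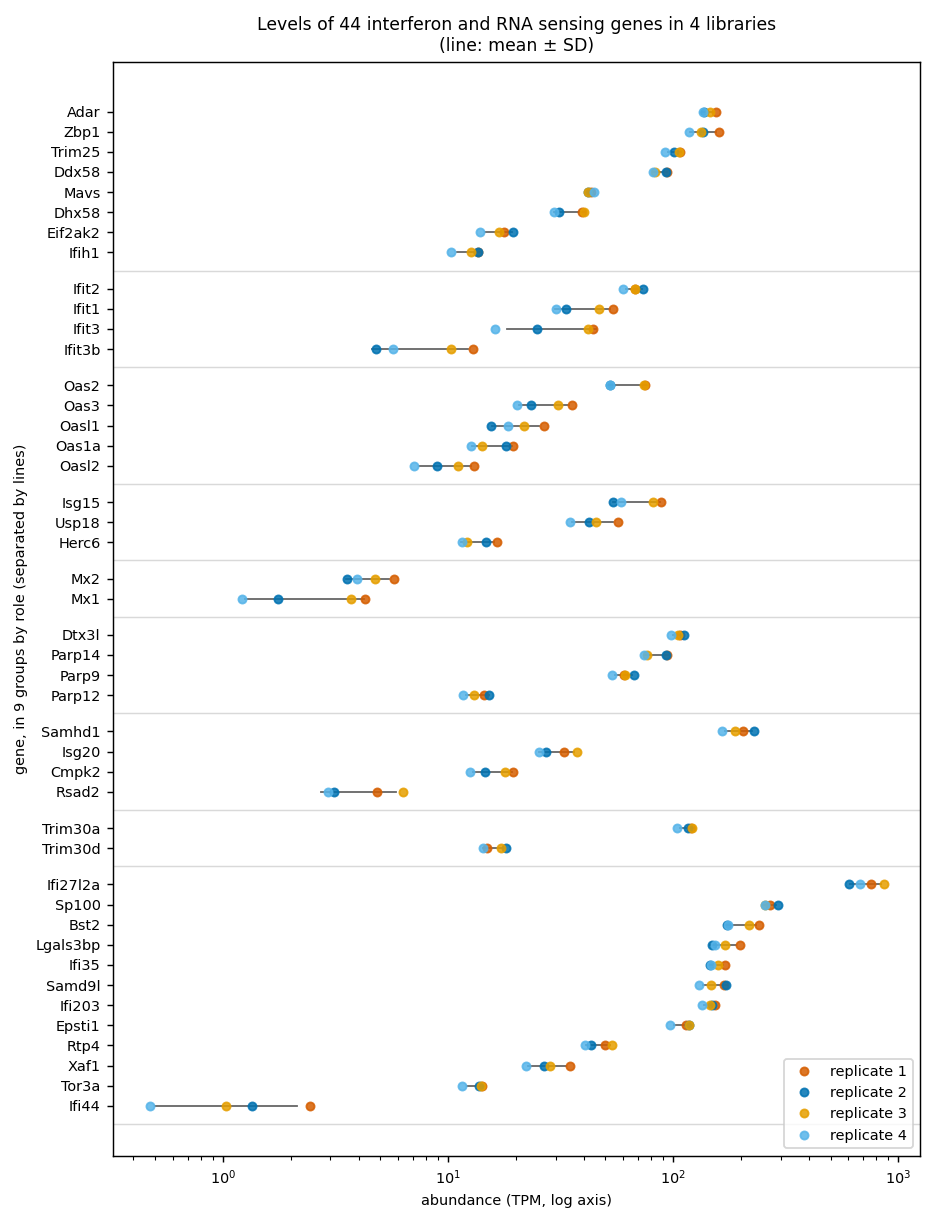
Abundance of the 44 genes (TPM, log axis) in the 4 libraries, with the genes in 9 groups by role, points for libraries and lines for the mean ± SD. Levels run from Ifi44, at 0.473 to 2.43 TPM, to Ifi27l2a, at 603 to 861 TPM, and the points of the sensors at the top lie closer together than those of most IFIT, OAS and Mx genes.

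The RNA sensors and their regulators were all present, and none of the 8 was called variable in the test below. Ddx58 (RIG-I) lay at 94.0, 92.6, 83.1 and 81.6 TPM and Ifih1 (MDA5) at 13.5, 13.5, 12.7 and 10.3 TPM, so RIG-I messages stood above MDA5 messages in every library. Their log2 ratio per length was 2.81 ± 0.12 (SD, n = 4), or 7.01-fold. The helicase Dhx58 (LGP2), which lacks the signalling domains and tunes the other sensors, lay at 39.3, 31.2, 40.3 and 29.7 TPM. It was higher in replicates 1 and 3 than in 2 and 4. The adaptor Mavs, through which both sensors signal, lay at 42.9, 41.8, 41.9 and 44.4 TPM. Its coefficient of variation in TPM, 2.77%, was the smallest of the 44 genes. Replicate 4 was its highest library, which held for no other of the 44.

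Enzymes and regulators around the sensors were mostly abundant. Trim25, a ubiquitin ligase that acts on RIG-I, lay at 107, 101, 106 and 92.3 TPM, and Adar, which edits adenosine to inosine in double-stranded RNA and so keeps cellular RNA from MDA5, at 155, 136, 145 and 136 TPM. Adar exceeded Ifih1 by 3.51 ± 0.16 on the log2 scale, or 11.4-fold, Mavs exceeded it by 1.78 ± 0.22 and Dhx58 by 1.48 ± 0.20 (SD, n = 4 each). Zbp1, a sensor of left-handed nucleic acids that can start necroptosis, lay at 160.4, 136, 133 and 117 TPM, and the kinase PKR (Eif2ak2), which stops translation when it binds double-stranded RNA, at 17.7, 19.5, 16.8 and 13.9 TPM. Zbp1 was highest in replicate 1 and Eif2ak2 in replicate 2, and both were lowest in replicate 4.

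Ratios of 9 pairs of genes were formed within libraries. Each ratio had 1 sign in 4 of 4 libraries, and the exact two-sided sign-flip permutation test gave a p of 2 in 16 sign patterns for each, raw and after Benjamini-Hochberg adjustment over the 9. With 4 libraries no smaller p exists, so none can reach 0.05. The remaining pairs are given with their families below.

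Genes that differed between libraries were sought with edgeR, by the deviance of each gene around its mean over the 4 libraries at the spread of genes of like abundance. All 44 genes passed the filter on low counts. At a Benjamini-Hochberg adjusted p of 0.05 over 12554 genes, 14 of the 44 were called variable, where 1.13% of all genes tested were called (142 genes). The 14 were Ifit1, Ifit3, Ifit3b, Oas2, Oas3, Oasl1, Oasl2, Isg15, Usp18, Mx1, Bst2, Ifi44, Ifi27l2a and Xaf1. By role, these were 3 of 4 IFIT genes, 4 of 5 OAS genes, 2 of 3 genes of the ISG15 system, 1 of 2 Mx genes and 4 of 12 other interferon-stimulated genes. None of the 8 sensors and regulators, 4 ADP-ribosylation genes, 4 nucleotide and nucleic acid enzymes or 2 TRIM30 genes was called in this fit. Rsad2, a nucleotide enzyme, was called by edgeR at the common dispersion (adjusted p = 6.17e-05). At an unadjusted edgeR p under 0.05 these groups held 2, 0, 3 and 0 genes, beside 657 of the 12554 genes tested. Neither the test at DESeq2's dispersion trend nor limma-trend called any gene of these groups. Over the 44 genes the median range between the highest and lowest library was 0.42 on the log2 scale of CPM plus 1, where CPM are counts scaled to library size with no length correction, beside 0.22 over all genes tested. It was 0.76 over the 14 called genes, which the test selects for a wide range, and 0.31 over the other 30. Other estimates of the spread called fewer of them. Limma-trend, which judges each gene against a prior variance, called 1 of the 44 (Ifit3) and 20 genes in all (0.159%). The same deviance test at DESeq2's dispersion trend called 10 of the 44 and 119 in all (0.948%). Without replicate 1, 2, 3 and 4 in turn, edgeR called 5, 9, 11 and 7 of the 44, beside 0.485%, 0.711%, 0.641% and 0.501% of all genes. Ifit1, Ifit3, Oas2 and Oas3 were called in each of these 4 fits. DESeq2 size factors left the same 14 calls (1.11% of all genes), the common dispersion gave 11 (2.8%), no filter on low counts gave 7 (0.398%) and an adjusted p of 0.01 gave 8 (0.589%).

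**Figure D2:**
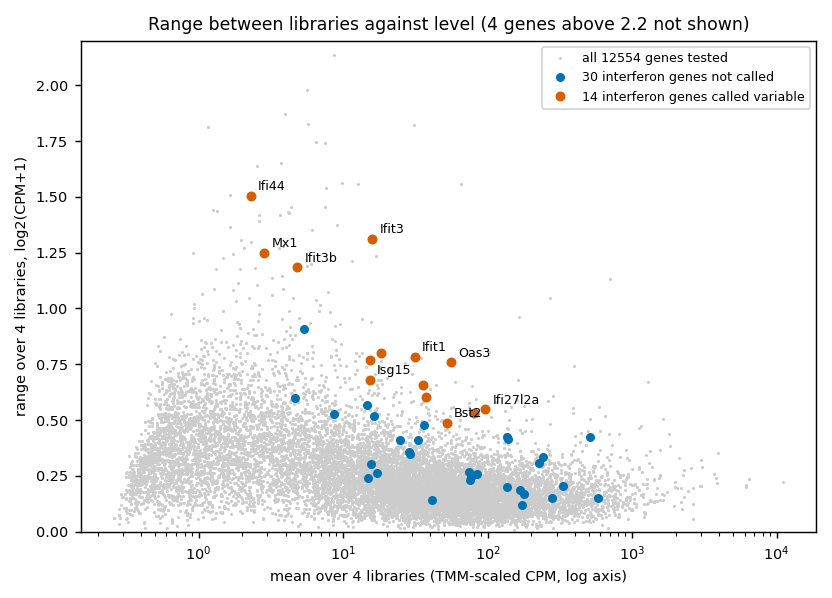
Range between the highest and lowest of the 4 libraries, in log2(CPM+1), against the mean level in CPM (log axis), for all 12554 genes tested (grey) and the 44 genes (blue, not called; orange, called variable). The 14 called genes lie above the bulk of genes of like level, Ifit3 at 1.31 and Ifi44 at 1.51.

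The IFIT proteins bind RNA that lacks the cap marks of cellular messages and keep it from being translated. Ifit3 lay at 44.2, 24.8, 41.8 and 16.2 TPM, a 2.72-fold range (edgeR adjusted p = 2.9e-11). Ifit1, the cap-sensing member, lay at 54.3, 33.4, 47.0 and 30.3 TPM, a 1.79-fold range (edgeR adjusted p = 7.9e-06). In both genes replicates 1 and 3 lay above replicates 2 and 4, and replicate 4 was lowest. Ifit3b, a near-copy of Ifit3, lay at 12.9, 4.79, 10.3 and 5.69 TPM (edgeR adjusted p = 0.0029), with the same libraries above, but with replicate 2 lowest. Without replicate 1 or 2 it was not called (edgeR adjusted p = 0.248 and 0.116). Ifit3 and Ifit3b share 51.2% and 45.4% of the 50-base words sampled from them with other genes, chiefly with each other, and fragments that align to both were left out of the counts, so their levels are uncertain. Ifit2, which binds double-stranded RNA, lay at 67.9, 73.0, 67.5 and 59.5 TPM and was not called (edgeR adjusted p = 1.0). Its order differed, with replicate 2 highest. The log2 ratio of Ifit3 to Ifit1 was -0.45 ± 0.32 (SD, n = 4). The 4 genes lie in a row on chromosome 19 of mm10, all on the plus strand, in the order Ifit2 (34550694 to 34576419), Ifit3 (34583531 to 34588731), Ifit3b (34607970 to 34613401) and Ifit1 (34640871 to 34650009).

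The OAS family includes enzymes that make short oligoadenylates when they bind double-stranded RNA. Oas3 lay at 35.5, 23.4, 30.8 and 20.3 TPM, a 1.75-fold range (edgeR adjusted p = 1.2e-06), and Oas2 at 74.7, 52.4, 74.1 and 52.5 TPM, a 1.42-fold range (edgeR adjusted p = 0.00026). In Oas2 the libraries fell into close pairs, replicates 1 and 3 high and replicates 2 and 4 low. The neighbours Oasl2 and Oasl1 lay at 13.0, 8.93, 11.1 and 7.07 TPM and at 26.8, 15.4, 21.7 and 18.4 TPM (edgeR adjusted p = 0.0051 and 0.0398). Replicates 1 and 3 were above the other libraries in both. Oasl2 was not called without replicate 1 or 4 (edgeR adjusted p = 0.372 and 0.464), nor Oasl1 without replicate 1 or 2 (edgeR adjusted p = 0.953 and 0.77). Oas1a lay at 19.4, 18.1, 14.1 and 12.6 TPM and was not called (edgeR adjusted p = 1.0), and 57.1% of its sampled words also occur in other genes, chiefly in Oas1g. Per length, Oasl2 lay below Oasl1 by a log2 ratio of -1.04 ± 0.25 (SD, n = 4), while in CPM without length it lay above by 0.24, since Oasl2 has 6374 exon bases and Oasl1 has 2608. Oas2 and Oas3 lie side by side on chromosome 5, minus strand, at 120730333 to 120749853 and 120753098 to 120777661.

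Isg15 is a ubiquitin-like protein that is joined to other proteins, Usp18 removes it and also damps the interferon receptor, and Herc6 is a mouse ligase for it. Isg15 lay at 88.3, 54.3, 81.5 and 58.4 TPM, a 1.63-fold range (edgeR adjusted p = 0.0344), with replicates 1 and 3 above 2 and 4 and with replicate 2 lowest. This call was lost without any 1 of replicates 1 to 4 (edgeR adjusted p = 0.436, 0.324, 0.111 and 0.0806) and with the DESeq2 trend (adjusted p = 0.0597). Usp18 lay at 56.8, 42.2, 45.4 and 34.7 TPM (edgeR adjusted p = 0.0123), with replicate 4 lowest, and was not called without replicate 1 or 4 (edgeR adjusted p = 1.0 and 0.459). Herc6 lay at 16.5, 14.7, 12.2 and 11.5 TPM and was not called (edgeR adjusted p = 0.199), with replicates 1 and 2 the higher, and 21.2% of its sampled words occur elsewhere. Of the enzymes that load Isg15, Uba7 stood at 167 ± 15.9 TPM and Ube2l6 at 1.04 ± 0.384 TPM, neither called, the latter named after its value was seen.

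The Mx proteins are dynamin-like GTPases that trap viral components and are known to be defective in most laboratory strains. Mx1 lay at 4.27, 1.75, 3.70 and 1.21 TPM on 79 to 113 counts, a 3.53-fold range (edgeR adjusted p = 0.0028). Without replicate 1 or 4 it was not called (edgeR adjusted p = 0.0877 and 0.153). Mx2, which GENCODE M21 lists as a polymorphic pseudogene, lay at 5.75, 3.54, 4.73 and 3.92 TPM and was not called (edgeR adjusted p = 1.0). Both had replicates 1 and 3 above 2 and 4.

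The 4 further called genes had other roles. Bst2 (tetherin), which holds budding virus particles on the cell surface, lay at 241, 173, 217 and 175 TPM (edgeR adjusted p = 0.0455). Its call was lost without any 1 of replicates 1 to 4 (edgeR adjusted p = 0.764, 0.106, 0.1 and 0.168) and at the common dispersion (edgeR adjusted p = 0.236). Ifi27l2a, a small membrane protein gene and the most abundant of the 44, lay at 757, 603, 861 and 673 TPM (edgeR adjusted p = 0.0271). Xaf1, a partner of the cell death inhibitor XIAP, lay at 34.8, 26.6, 28.4 and 22.1 TPM (edgeR adjusted p = 0.0357). All of these had replicates 1 and 3 above 2 and 4, and Ifi27l2a was highest in replicate 3. Ifi44 lay at 2.43, 1.35, 1.03 and 0.473 TPM on 42 to 145 counts (edgeR adjusted p = 0.0014). It was the widest of the 44 on the log2 scale, at 1.51, and the single called gene with replicate 2 above replicate 3. Ifi27l2a was not called without replicate 2 or 3 (edgeR adjusted p = 0.518 and 0.853). Without replicate 1 or 4 neither Xaf1 (edgeR adjusted p = 1.0 and 0.744) nor Ifi44 (edgeR adjusted p = 0.432 and 0.435) was called.

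The 30 genes that were not called spanned the other roles. Parp9 and Dtx3l, whose proteins form a complex, stood at 60.4 ± 5.44 and 105.3 ± 5.51 TPM, with a log2 ratio of -0.80 ± 0.06 (SD, n = 4). They lie head to head on chromosome 16 and overlap by 682 bases. Their log2 ranges between libraries were 0.26 and 0.12, the latter the smallest of the 44. The related ADP-ribose transferases Parp14 and Parp12 stood at 84.6 ± 10.5 and 13.6 ± 1.56 TPM. The 4 genes of this group had log2 ranges of 0.12 to 0.31, and none had replicates 1 and 3 both above 2 and 4.

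Rsad2 (viperin), which makes a chain-terminating nucleotide, came closest to a call, at 4.84, 3.11, 6.30 and 2.94 TPM (edgeR adjusted p = 0.0607), and was called by edgeR at the common dispersion and with the Xist split as a term (adjusted p = 6.17e-05 and 0.0216). Its neighbour Cmpk2, a nucleotide kinase, lay at 19.4, 14.6, 17.8 and 12.4 TPM, and the exonuclease Isg20 at 32.8, 27.3, 37.5 and 25.3 TPM, both uncalled (edgeR adjusted p = 0.392 and 0.51). Replicates 1 and 3 were above 2 and 4 in all of them. Samhd1, which breaks down the building blocks of DNA, was far more abundant, at 205, 229, 189 and 164 TPM, with replicate 2 highest. The paralogs Trim30a, a brake on Toll-like receptor signals, and Trim30d stood at 115 ± 7.69 and 16.06 ± 1.79 TPM, and their log2 ratio was 2.84 ± 0.13 (SD, n = 4). They share 10.2% and 10.5% of their sampled words with other genes.

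Among the remaining genes, Sp100, a component of nuclear bodies, stood at 268 ± 17.1 TPM. The secreted glycoprotein gene Lgals3bp (167.5 ± 21.8 TPM), Ifi35 (156 ± 11.4 TPM), the growth brake Samd9l (155 ± 19.1 TPM), the PYHIN family gene Ifi203 (145 ± 7.75 TPM) and Epsti1 (111 ± 10.1 TPM) were also abundant. Rtp4 stood at 46.7 ± 5.78 TPM and Tor3a at 13.4 ± 1.203 TPM. None of these 8 genes was called by edgeR, DESeq2 or limma, and 1 of them, Lgals3bp, had an unadjusted edgeR p under 0.05. Replicates 1 and 3 were both above 2 and 4 in 5 of them, namely Lgals3bp, Ifi35, Ifi203, Rtp4 and Tor3a.

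The 44 genes shared an order of libraries more often than genes at large. Replicate 1 was the highest library for 25 of the 44, where it was for 26.0% of the 12554 genes tested, and replicate 4 was the lowest for 32, where it was for 23.0%. Replicate 1 was the lowest library for none of the 44 (26.5% of all genes), and replicate 4 the highest for Mavs alone (20.5%). Replicates 1 and 3 both lay above replicates 2 and 4 in 27 of the 44, where 14.2% of all genes did so. The opposite order held in none of the 44 and in 14.7% of all genes. This order held in 13 of the 14 called genes, in 14 of the 30 others and 24 of the 128 other called genes. The strict order of replicates 1, 3, 2 and 4 held in 11 of the 44, against 3.03% of all genes. The grouping of replicates 1 and 3 was noticed in the values and not set by the labels, so its count is a description and was not tested. The median deviation of the 44 genes from their mean over libraries was 0.14, -0.07, 0.06 and -0.18 on the log2 scale, and 0.38, -0.27, 0.22 and -0.33 for the 14 called genes. For all genes tested it was within 0.01 of 0 in every library.

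**Figure D3:**
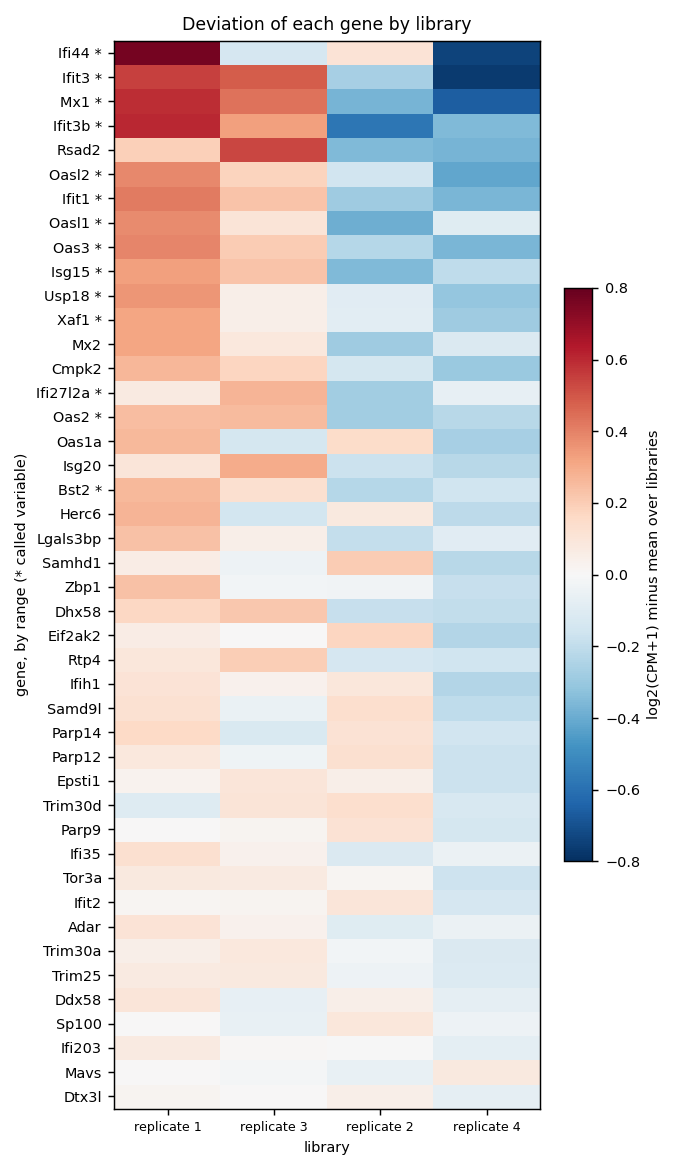
Deviation of each of the 44 genes from its mean over the 4 libraries, in log2(CPM+1), with libraries in the order 1, 3, 2 and 4, genes ordered by range and stars on the 14 called genes. Red (above the mean) prevails in the columns of replicates 1 and 3 and blue (below) in those of 2 and 4 for the genes at the top, while genes at the foot, such as Mavs and Dtx3l, are near white.

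**Figure D4:**
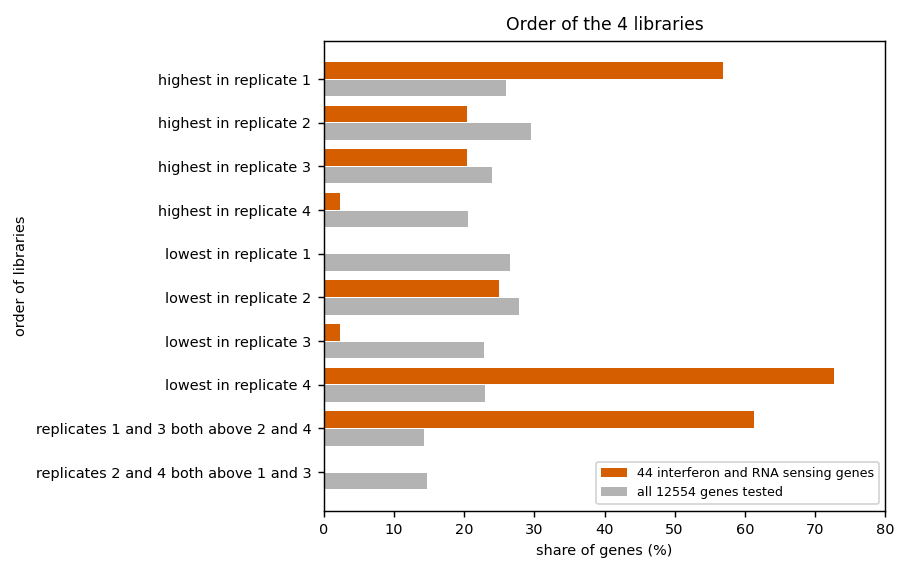
Share of genes (%) with each order of the 4 libraries, for the 44 genes (orange) and all 12554 genes tested (grey). Replicate 1 was highest in 56.8% of the 44 and replicate 4 lowest in 72.7%, beside 26.0% and 23.0% of all genes.

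Replicates 1 and 3 were also the libraries with fewer counts, so this order and sequencing depth cannot be told apart. Over all genes the 2 orders that split the libraries by depth were about equally common (14.2% and 14.7%). Among the 142 genes called variable they were not, as 37 had the shallow libraries, replicates 1 and 3, above the deep ones and 0 had the opposite order. Of the 128 called genes outside the 44, these were 24 and 0. Between the libraries of like depth, replicate 1 was above replicate 3 in 32 of the 44 genes (49.9% of all genes) and replicate 2 above replicate 4 in 33 (51.5% of all genes). The 27 genes with the shared order had a median of 3272 exon bases and the other 17 a median of 5427, beside 3400 for all genes with that order, 4086 for those with the opposite order and 3812.5 for all genes. The part of gene length in the order was not tested.

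Libraries were also compared within the pairs that the sex-linked genes set. Each pair put a shallow library (replicate 1 or 3) against a deep library (replicate 2 or 4). Differences within a pair thus cannot be told apart from depth. Replicate 1 was above replicate 2 in 34 of the 44 genes (48.8% of all genes) and replicate 3 above replicate 4 in 42 (50.7% of all genes). Both held in 33 of the 44, where 22.7% of all genes did so. Every gene with replicates 1 and 3 both above 2 and 4 meets both by definition. The median log2 difference over the 44 genes was 0.232 between replicates 1 and 2 and 0.233 between replicates 3 and 4. All 14 called genes were among the 33, with medians of 0.64 and 0.52. The test selects these 14 for wide differences between the same libraries. Across those pairs, replicates 1 and 2 both lay above 3 and 4 in 12 of the 44 (17.6% of all genes), and the opposite held in none (16.8% of all genes). The 12 were Ddx58, Ifih1, Eif2ak2, Oas1a, Herc6, Dtx3l, Parp12, Parp14, Samhd1, Samd9l, Sp100 and Ifi44, of which Ifi44 was called. With the Xist split as a term, a fit added after the values were seen, edgeR called 11 of the 44 and 59 of 12554 genes (0.47%). Of the 14, Usp18, Ifi44, Ifi27l2a and Xaf1 were then not called, and Rsad2 was.

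Interferon genes themselves gave next to no counts. Of 19 type I and type III interferon genes, 17 had no count in any library, among them Ifnb1 and all 13 numbered Ifna genes. For these, 3 counts would have given at most 0.436 to 0.801 TPM, depending on the gene, a floor that covers counting error only. Ifnab had 0, 4, 0 and 2 counts and Ifnl2 had 0, 2, 0 and 1, so both were seen in the deeper libraries alone. Fragments with several alignments were not counted, and the Ifna genes resemble each other, with up to 67.9% of sampled words shared with other genes (Ifna1), so reads common to several of them would be missed by these zeros and floors.

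The 7 genes followed on the path from receptor to nucleus all reached 1 TPM in each library. None was called by edgeR, where 0 had an unadjusted p under 0.05, by limma or by DESeq2's trend. Ifnar1 stood at 104.3 ± 8.51 TPM and Ifnar2 at 58.2 ± 1.91 TPM, with a log2 ratio of -0.84 ± 0.09 (SD, n = 4). The kinase Jak1 was the most abundant of the list, at 644 ± 27.9 TPM, and Irf9 stood at 118 ± 9.84 TPM. Stat2, a part of the complex that binds the ISRE, lay at 67.2, 58.4, 57.2 and 55.7 TPM, with replicate 1 highest, and was with Ifnar2 the lowest of the list.

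Below the sensors, Irf7 was the 1 gene called among the 27 pathway genes that could be tested. This factor drives a broad interferon response and is itself interferon-stimulated. It lay at 148, 103, 129 and 105 TPM (edgeR adjusted p = 0.0158), with replicates 1 and 3 above 2 and 4, as in 13 of the 14 called genes above. Without replicate 1 or 2 it was not called (edgeR adjusted p = 0.843 and 0.243). The kinase Ikbke (268 ± 16.7 TPM) and Irf3 (223 ± 12.0 TPM), the factor that MAVS signals reach first, were the highest of that list, and Rnf135 (8.25 ± 0.818 TPM) and Nlrx1 (6.57 ± 0.883 TPM) were the lowest. Among sensors of other nucleic acids, the DNA pathway adaptor STING (Tmem173, 290.3 ± 9.64 TPM), the adaptor Myd88 (124 ± 6.87 TPM) and Aim2 (26.9 ± 3.35 TPM) were highest, and Tlr3 was low at 0.357 ± 0.205 TPM. Trex1 had no count, but all of its exon bases lie in another gene on the same strand, so this says nothing of its level. Among partners of the 44 genes, Zc3hav1 (258 ± 8.08 TPM), Uba7 and Ripk3 (86.8 ± 3.41 TPM) were highest, and Ifitm1 (0.277 ± 0.159 TPM) and Mlkl (0.141 ± 0.0669 TPM) lowest. Ripk3 acts downstream of Zbp1 and Mlkl carries out the death that follows.

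Markers of other cells were read beside these genes, since in bulk RNA a change in the number of cells of a type and a change in RNA per cell cannot be told apart. All 5 B cell markers (Ms4a1, Cd79a, Cd79b, Igkc and Ighd) were called variable, and their summed level was 108, 70.3, 69.8 and 27.3 TPM. Igkc, the highest of them, lay at 64.7, 38.2, 34.9 and 11.2 TPM. Ms4a1, at 2.02, 1.07, 1.67 and 0.478 TPM, and Cd79b, at 12.2, 8.05, 12.5 and 4.52 TPM, had replicates 1 and 3 above 2 and 4, as most of the called interferon genes did. Cd79a, at 13.5, 9.20, 7.61 and 4.10 TPM, Ighd, at 15.9, 13.8, 13.2 and 6.96 TPM, and Igkc were higher in replicate 2 than in replicate 3. All 5 were lowest in replicate 4. Plasmacytoid dendritic cells are a known source of interferon. Of their 5 markers Cox6a2 and Klk1 had no count, Siglech reached at most 0.0675 TPM, and Spib, also a B cell gene, was called at 5.42, 1.99, 3.97 and 0.895 TPM. Tcf4 lay at 0.432, 0.310, 0.498 and 0.369 TPM and was not called. Spib and Tcf4 both had replicates 1 and 3 above 2 and 4. The summed level of the 5 was 5.90, 2.37, 4.51 and 1.26 TPM, most of it Spib in every library. The order of this sum, replicates 1, 3, 2 and 4 as in 11 of the 44 genes, was thus that of Spib. Of 6 markers of activated T cells, Il2ra, Tnfrsf4, Tnfrsf9 and Mki67 had replicates 1 and 3 above 2 and 4. Il2ra was called, at 6.22, 3.63, 9.13 and 3.11 TPM, and Tnfrsf4, at 33.2, 27.7, 42.4 and 30.5 TPM, and Cd69 had an unadjusted edgeR p under 0.05. Cd69, the most abundant of them, went otherwise, at 55.1, 70.6, 54.7 and 54.7 TPM. The summed level of the 6 was 138, 142, 148 and 127 TPM. Il2ra is also on the list of regulatory T cell markers. In CPM, Il2ra, Foxp3 and Ikzf2 of that list had replicates 1 and 3 above 2 and 4, while Ctla4, Tnfrsf18 and Izumo1r did not. In TPM, Foxp3 was slightly higher in replicate 2 than in replicate 1. Il2ra alone of that list was called. Marker genes beyond the highest and the called of each list are named after their values were seen. The lists of monocyte, natural killer, conventional dendritic, neutrophil and red cell markers each summed to at most 7.38 TPM in any library. In that order, 2 of 5, 3 of 4, 1 of 4, 0 of 3 and 0 of 4 genes passed the filter on low counts. The others could not be called. Of the genes tested none was called by edgeR or DESeq2, and 1 had an unadjusted edgeR p under 0.05. The CD8 marker Cd8b1 stood at 39.95 ± 2.55 TPM and the endothelial marker Pecam1 at 155 ± 14.7 TPM, neither called. The other genes of their lists were low, Cd8a at 0.794 ± 0.288 TPM and Col1a1 at 0.108 ± 0.0664 TPM, while Col3a1 had no count. The part of these cells, or of T cell activation, in the interferon gene differences was not tested.

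**Figure D5:**
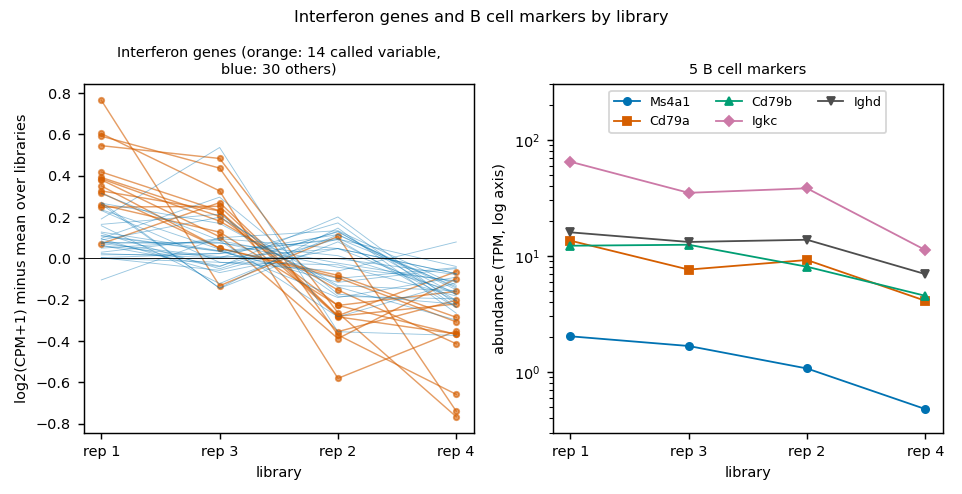
Left, deviation of each of the 44 genes from its mean over libraries in log2(CPM+1), with the 14 called genes in orange and the other 30 in blue. Right, abundance (TPM, log axis) of each of the 5 B cell markers in the same libraries. All 5 markers are lowest in replicate 4, and Ms4a1 and Cd79b lie higher in replicate 3 than in replicate 2 while Cd79a, Igkc and Ighd lie lower.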

How the data were processed

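RNA-seq libraries of 4 biosamples labelled regulatory T cell were read from count tables. The tables hold raw counts of fragments for each gene, which the authors made with featureCounts 1.4.6-p4, per the file headers, over exons of GENCODE M13, reverse-stranded, from paired reads. Fragments with several alignments, or over several genes, did not enter the counts under the options in the headers. Further steps of the reads are not given in the sources used here. The column that was described as TPM holds counts, so TPM was computed here from counts and exon lengths. Symbols came from GENCODE M21 (50376 of 50600 identifiers matched) and promoters from RefSeq.

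The test for genes that differ between libraries took the counts through filterByExpr and TMM in edgeR 4.0.16 under R 4.3.3. A glmQLFit with an intercept alone gave each gene's deviance at the trended dispersion, read against chi-square on 3 degrees of freedom, with Benjamini-Hochberg adjustment over all genes tested. The step was tested on simulated data, in which sets of 50 genes were changed in 1 library. It recovered 14 of 50 at 1.5-fold, 42 at 2-fold, 47 at 3-fold and 48 at 4-fold, with 2 false calls among 153. Most 1.5-fold changes were missed, so a gene that was not called is not shown to be constant. Library order used TMM-scaled log2(CPM+1). Ratios used TPM plus 0.1. Sequence sharing used 50-base words taken every 10 bases. Alternatives used DESeq2 1.42.0, limma 3.58.1, other filters, scales, dispersions and thresholds, and left out each library. Calls given as DESeq2 are the edgeR deviance test at DESeq2's size factors and dispersion trend. Calls given as limma rest on the ratio of each gene's variance to the trended prior variance. Other values came from Python 3.11.15 with pandas 2.3.3 and matplotlib 3.10.9. Depth ran from 23000465 to 62090744 counts, which limits the precision of low genes, and a floor of 3 counts was used for genes without one.

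Named genes are all 44, pathway genes called variable, the 3 highest and 2 lowest of each pathway list, and the highest and any called of each marker list. Of the lists beside the 44, 3 genes and a ratio with 1 of them are not reported here, and list counts and sums were computed without them. The genes, lists and tests were chosen with earlier results of these data known.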

Additional observations from a re-analysis of the deposited data

Results flagged for a closer look

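Tor3a, an endoplasmic reticulum ATPase gene that interferon raises, had 1 library apart from the others. Its level was 11.6 TPM in replicate 4 and 13.7 to 14.1 TPM in replicates 1 to 3, so the gap to the nearest library was 0.84 of the whole range, above the 95% critical value of Dixon's test for 4 samples. Chance alone sets such a mark on about 1 in 20 groups, and 47 genes were looked at. Tor3a was not called variable by edgeR (adjusted p = 1.0).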

How the results depend on the processing

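The number of genes called variable, 142 with edgeR, was 352 at the common dispersion, 20 with limma-trend, 88 without the filter on low counts, 74 at an adjusted p of 0.01, 59 with the Xist split as a term (chosen after seeing the data) and 60 to 85 when each replicate was left out. The 14 interferon and RNA sensing genes among them became 1 with limma-trend, 7 without the filter, 8 at an adjusted p of 0.01 and 5 to 11 without each replicate, with the lowest without replicate 1. They were 14 with DESeq2 size factors, 10 with the DESeq2 trend, 11 at the common dispersion and 11 with the Xist term, of which 14, 10, 10 and 10 were the same genes. The count with replicates 1 and 3 both above 2 and 4, 27 of 44, ran from 25 to 27 under the other scales (14.2% to 14.5% of all genes). It was 24 of 40 at a mean of 5 CPM (12.8% of all genes at that level). Without replicates 1, 2, 3 and 4 in turn it was 28, 42, 33 and 28, a range of 28 to 42. The shares of all genes were then 31.5%, 31.1%, 32.7% and 33.9%, as fewer libraries are ordered. The log2 ratio of Oasl2 to Oasl1 turned from -1.04 to 0.24 in CPM without length, and no other ratio changed sign under the alternatives run. The median level of the 44 genes was 37.5 in CPM without length, in place of 44.5 TPM. The strict gamma-activated site was in 2 promoters in place of 8. TPM and TMM scaling differed by at most 0.03 in the log2 median over all genes. No paired analysis was possible because there is 1 group. Counts of 42 to 145 limit Ifi44 and 79 to 113 limit Mx1.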
